A study of Homo sapiens with 7 samples.

Results

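Transient hypoxia regions are stretches of DNA in which a peak of 5-hydroxymethylcytosine (5-hmC) was called for a stretch of time in low oxygen, and in which no peak was called before it or at its end. SK-N-BE(2) cells, an established human neuroblastoma line given as wild type in the labels, were kept at 21% oxygen (normoxia, 0 h) or at 1% oxygen (hypoxia) for 6, 12, 24, 48 or 72 h. Fragments of genomic DNA that carry 5-hmC were pulled down and sequenced, and the authors deposited 1 list of enriched regions (peaks) per time point. Overlapping peaks of the 6 lists on chromosomes 1 to 22 were merged into 407675 regions. A region was taken as present in a list when it overlapped a peak of that list by at least 1 bp. The members were the 9594 regions (2.35% of all autosomal regions) that were absent at 0 and 72 h and present in 1 unbroken run of at least 2 of the lists of 6, 12, 24 and 48 h. The members were chosen by presence and absence in the 6 lists, so their pattern over time is a description and carries no test.

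The mark 5-hmC is made when the TET enzymes oxidise 5-methylcytosine, a reaction that needs molecular oxygen, iron and 2-oxoglutarate. It is an intermediate of active DNA demethylation and can also persist as a stable mark, above all in neural cells, where it is found in the bodies of transcribed genes and at enhancers. Neuroblastoma arises from the sympathetic nervous system, and SK-N-BE(2) carries an amplified MYCN gene, which encodes a transcription factor of the MYC family.

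With 1 library per time point there is no replicate error, and times are compared only as libraries. Because cells at 21% oxygen were taken at 0 h and at no later time, low oxygen and time in culture cannot be told apart. The lists held between 285292 peaks (0 h) and 352484 peaks (72 h), and read depth is unknown because they give positions without heights or read counts. A call of absence therefore means that no peak was listed, and it does not separate a site without 5-hmC from one just under the limit of peak calling. The smallest peak of a list was between 226 and 242 bp wide. Intervals below are exact 95% Clopper-Pearson intervals over regions and cover counting error only.

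The first question was how the transient regions were spread over the possible runs. The largest group was present at 24 and 48 h, with 3145 regions (32.8% of the members). Present at 12 and 24 h were 1525 regions, and at 6 and 12 h 1354. Runs of 3 lists were less frequent, with 919 regions at 6, 12 and 24 h and 1217 at 12, 24 and 48 h. The full run from 6 to 48 h held 1434 regions (14.9%). More members thus belonged to the run at 24 and 48 h than to any of the other 5 runs, and 48 h was the longest list of the 4 that the runs could use. With the same number of peaks taken from each list, widest first, the run at 6 and 12 h held 2487 regions and that at 24 and 48 h 2237. With no 0 or 72 h peak allowed within 1 kb, 5186 members were left, of which 1898 were of the run at 24 and 48 h.

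**Figure D1:**
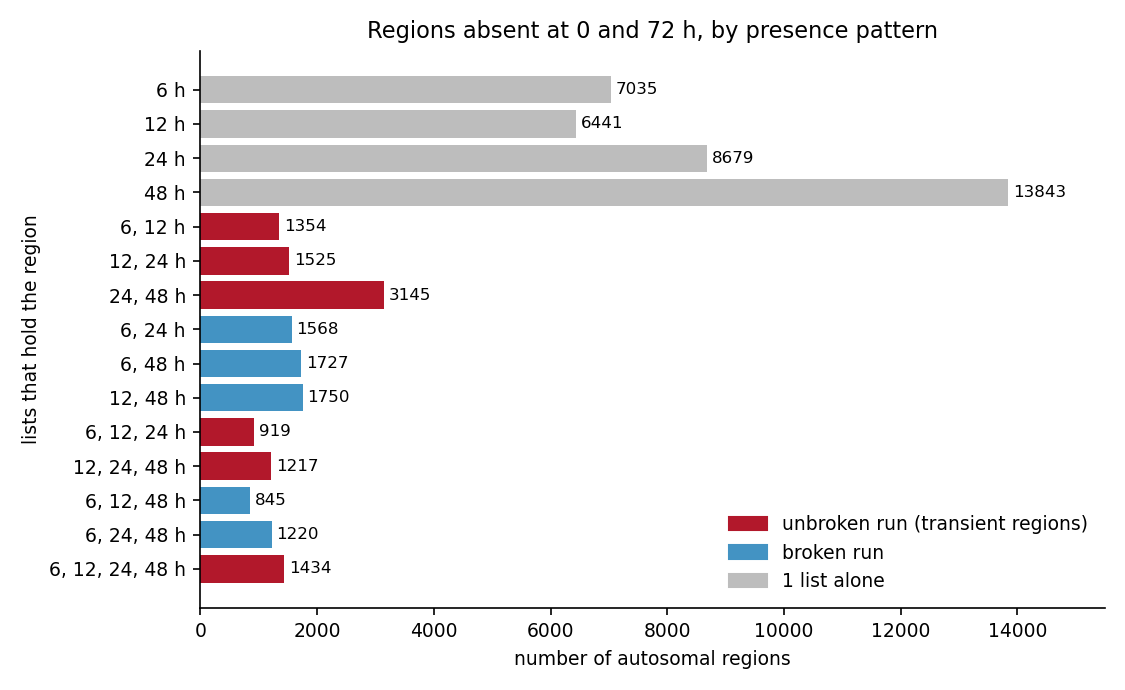
Number of autosomal regions absent at 0 and 72 h (horizontal axis) for each of the 15 possible patterns over the lists of 6, 12, 24 and 48 h (vertical axis). Red bars are the transient regions, blue bars are patterns with a gap, and grey bars are regions of 1 list alone. The 3145 regions at 24 and 48 h form the longest red bar, and the other red and blue bars lie between 845 and 1750.

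The members were then set beside patterns that had as many lists but a gap in time. A total of 52702 regions were absent at 0 and 72 h, and 68.3% of them were called in 1 list alone. Pairs of neighbouring times held 6024 regions (11.4% of the 52702), and pairs with a time between them, such as 6 and 24 h, held 5045 (9.57%). Without the pair of 24 and 48 h, the neighbouring pairs averaged 1440 regions per pattern, below the mean of 1682 for the 3 pairs with a gap. With the same number of peaks per list this turned round, to means of 2254 and 1820. For patterns of 3 lists, 2136 regions were in an unbroken run (4.05%, 3.89 to 4.22%) and 2065 in a pattern with a gap (3.92%, 3.75 to 4.09%). The intervals of these 2 shares overlap. Broken patterns numbered 7110 regions in all, against the 9594 transient regions, which include the 4-list run that cannot have a gap.

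The mirror image was also counted. Regions present at 0 and 72 h but missing from an unbroken run of at least 2 of the lists between them numbered 12325, more than the 9594 members. With the same number of peaks taken from each list, widest first, that order turned round, with 9889 regions of the mirror pattern and 11438 members. Regions called at 0 and 72 h and at no time between, the 2 libraries farthest apart in time, numbered 2453. That was more than the 1354 called at 6 and 12 h alone or the 1347 called at 0 and 6 h alone. It was fewer than the 3145 called at 24 and 48 h alone or the 14578 called at 48 and 72 h alone. The list of 72 h was the longest of the 6 and the list of 0 h the shortest.

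Regions with the same calls between 6 and 48 h were missing from both end lists in shares that differed by run. Of the 4129 regions called at 6 and 12 h but not at 24 or 48 h, 1354 were members (32.8%, 31.4 to 34.2%), while 831 were also called at 0 h, 1029 at 72 h and 915 at both. For the pair of 12 and 24 h the share was 32.7% of 4658 regions. Of the 15481 regions called at 24 and 48 h but not at 6 or 12 h, 3145 were members (20.3%, 19.7 to 21.0%). Another 7869 (50.8%) were called at 72 h but not at 0 h, and 3538 at both. Among regions called in all 4 lists, 1434 of 209660 (0.684%) were missing from both end lists. A run at 24 and 48 h was thus followed by a call at 72 h more often than a run at 6 and 12 h, where 24.9% were called at 72 h and not at 0 h. Broken pairs gave similar values to these. The share missing from both ends was 32.7% for 6 and 24 h, 22% for 6 and 48 h and 22.3% for 12 and 48 h. The share called at 72 h and not at 0 h was 27.9, 45.0 and 46.1% in the same order. A high share at 72 h was thus not particular to the unbroken run, and 48 h is the list just before 72 h.

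The regions with the widest peaks show what a clear case looks like. For each run they were ranked by the narrowest peak they had in it, so that a leading region was wide in each list of its run. Positions are in hg19, the build named in the submitters' processing notes, and gene annotation and sequence of this build were not used here.

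For the run at 6 and 12 h the leading region was chr9:102237717-102238306, with peaks of 529 bp (6 h) and 540 bp (12 h). The nearest normoxia peak lay 1390 bp away, and a separate 72 h peak lay 166 bp away. The next was chr12:53739634-53740159, with peaks of 524 and 525 bp, whose nearest 0 and 72 h peaks were 2422 and 5416 bp away. A further one, chr2:87732077-87732627, had peaks of 551 and 490 bp and lay more than 4 kb from both end lists (4114 and 4055 bp). The regions on chromosomes 12 and 2 therefore had no peak close by in either end list, while that on chromosome 9 had a 72 h peak almost beside it.

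For the run at 12 and 24 h, chr13:108162842-108163665 led with peaks of 577 bp (12 h) and 572 bp (24 h). A 72 h peak began 9 bp from its edge, so its absence at 72 h rests on those few bases. In chr20:15641016-15641807 the peaks measured 536 and 629 bp, and the nearest 0 and 72 h peaks were 4921 and 3651 bp away. In chr17:26150120-26150708 they measured 503 and 514 bp, with peaks of both end lists at 255 and 301 bp. Of these 3 regions, chr20:15641016-15641807 was the one set apart from peaks of both end lists by more than 1 kb.

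For the run at 24 and 48 h, chr17:4057586-4058183 had peaks of 569 bp (24 h) and 593 bp (48 h) and no 0 or 72 h peak within 6 kb (6244 and 6187 bp). In chr1:94790830-94791433 the peaks measured 582 and 530 bp, and in chr17:74567986-74568535 they measured 532 and 530 bp. Both lay within 1 kb of peaks of the end lists, at 484 and 461 bp for the region on chromosome 1 and at 752 and 154 bp for that on chromosome 17.

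The widest member of all was chr4:6292563-6294052, with 1490 bp. It had 1 peak of 588 bp at 6 h, 2 peaks at 12 h with the wider at 724 bp, and 2 peaks at 24 h with the wider at 601 bp. No peak of the 0 or 72 h list lay within 5 kb of it (5664 and 5669 bp). A second transient region of the same run, chr4:6289192-6289477, lay next to it, with peaks of 274, 277 and 250 bp in time order. Both regions were missing again at 48 h. Other leading regions of the run at 6, 12 and 24 h were chr1:214100900-214101560, with peaks of 504, 565 and 650 bp in time order, and chr3:134855431-134856058, with 550, 559 and 492 bp.

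For the run from 12 to 48 h, the peak of chr17:80867648-80868310 measured 510, 602 and 663 bp in time order. It was thus widest in the last list of its run, and no peak overlapped it at 72 h, when the nearest was 1203 bp away. In chr11:12794692-12795207 the widths were 476, 502 and 480 bp, and in chr5:75668225-75668949 they were 472, 575 and 476 bp. The region on chromosome 5 lay 68040 bp from the nearest normoxia peak and 2389 bp from the nearest 72 h peak.

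The leading regions called at all 4 times from 6 to 48 h differed in how their width varied. In chr3:115854198-115854757 the peaks measured 512, 547, 504 and 497 bp in time order. In chr9:29691820-29692436 they measured 522, 497, 522 and 532 bp, and in chr19:4829019-4829682 they measured 485, 664, 577 and 589 bp. The first 2 stayed between 497 and 547 bp, and that on chromosome 19 was narrowest at 6 h and widest at 12 h. Peaks of the 0 h list lay 624, 1645 and 914 bp from these 3 regions.

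**Figure D2:**
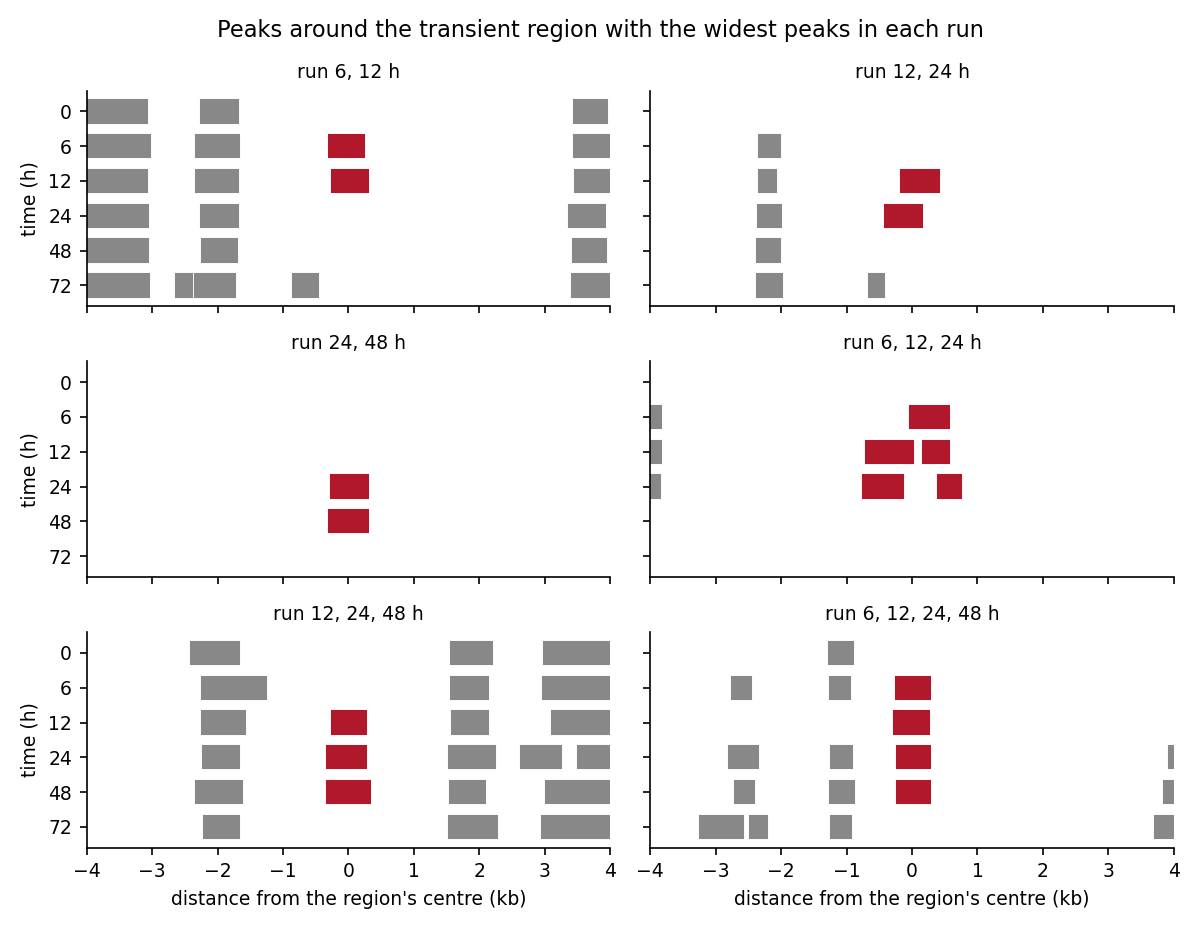
Peaks of the 6 lists (rows, time in h) within 4 kb of the centre of the leading region of each run (horizontal axis, kb), with peaks of the transient region in red and all other peaks in grey. Around the region at 24 and 48 h no other peak was listed, while around that at 12, 24 and 48 h flanking peaks were present in all 6 lists.

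Such wide cases were rare among the members. Their median width was 339 bp (quartiles 300 and 397 bp), against 453 bp for all autosomal regions and 673 bp for the 192041 regions present in all 6 lists. Only 495 members (5.16%, 4.73 to 5.62%) had a peak of at least 500 bp, against 38.8% of all autosomal regions. Regions of the broken patterns were of nearly the same width, with a median of 331 bp, and 3.31% of them had a peak of at least 500 bp (2.90 to 3.75%). Regions gained in hypoxia and kept to 72 h had a median of 389 bp, and 16.3% had a peak of that width. Transient regions were therefore narrower than regions gained and kept, and close to those with broken patterns. Regions gained and kept can be held by up to 5 lists, and at the same number of lists the difference was smaller. Those called at 48 and 72 h alone had a median of 343 bp, against 320 to 328 bp for members of 2 lists. Those called at 24, 48 and 72 h alone had one of 380 bp, against 359 and 360 bp for members of 3 lists.

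Width grew with the number of lists that held a region, as merging more peaks also brings. The median was 320 bp for the run at 24 and 48 h, 320 bp for 12 and 24 h, 328 bp for 6 and 12 h, 359 bp for 6, 12 and 24 h, 360 bp for 12, 24 and 48 h and 387 bp for the full run. Peaks of at least 500 bp occurred in 3.02% of the regions at 24 and 48 h, 1.70% of those at 12 and 24 h and 12.3% of those called at all 4 times.

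The single peaks behind the members lay close to the smallest width that each list contained. In time order from 6 to 48 h, their medians were 282, 271, 275 and 280 bp. Within 50 bp of the smallest width of the list were 52.0, 57.1, 56.1 and 51.6% of the members' peaks in the same order. For all autosomal peaks of these lists the share was 17.6 to 18.8%, and for the peaks of regions present in all 6 lists it was 4.76 to 8.04%. Most of the members' peaks thus stood near the lower end of what was called, and how far this accounts for their absence from other lists was not tested.

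The next question was whether peaks widened or narrowed within a run. The rule did not use width itself, but it is not independent of it. Members had to be missing from the lists before and after the run, and the regions set beside them did not. How far this choice alone lowers the share that widened was not tested. In members with 1 peak in each list of their run, the last peak was wider than the first in 4945 of 9529 (51.9%, 50.9 to 52.9%). At 6 and 12 h, 619 of 1353 members (45.8%, 43.1 to 48.4%) were wider at 12 h, against 45.2% of all regions with 1 peak in both lists. At 12 and 24 h it was 55.0% (52.5 to 57.5%) against 57.8%, and at 24 and 48 h 53.2% (51.5 to 55.0%) against 57.3%. The longer runs also lay below the other regions. From 6 to 24 h, 47.9% were wider at the end (44.6 to 51.2%) against 53.2%. From 12 to 48 h it was 58.0% (55.1 to 60.8%) against 63.6%, and from 6 to 48 h 48.9% (46.2 to 51.5%) against 59.3%. After each list's smallest width was subtracted, the share for 6 and 12 h was above that of the other regions, 49.3% against 47.3%. It was 50.7% against 56.6% for 12 and 24 h and 54.0% against 57.8% for 24 and 48 h. For the longer runs it was 49.2% against 54.2% from 6 to 24 h, 55.2% against 63.1% from 12 to 48 h and 50.1% against 60.7% from 6 to 48 h. The general widening of peaks with time was thus less common in the members of the 4-list run.

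The time of the widest peak followed the same pattern. Among the 1402 members of the full run with 1 peak in each list, the widest peak fell in the lists of 6, 12, 24 and 48 h in 26.2, 23.8, 26.5 and 23.5% of cases. Among all 175400 regions with 1 peak in each of these 4 lists, the shares were 22.6, 17.3, 24.4 and 35.7%. For the run from 12 to 48 h, 24 h was the widest in 37.5% of members and 48 h in 36.8%, against 31.8 and 44.7% in 193045 regions. Widths cannot fall below the smallest width called, and the members' peaks lay nearer to it than those of other regions. The part of this in the order of widths was not tested.

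**Figure D3:**
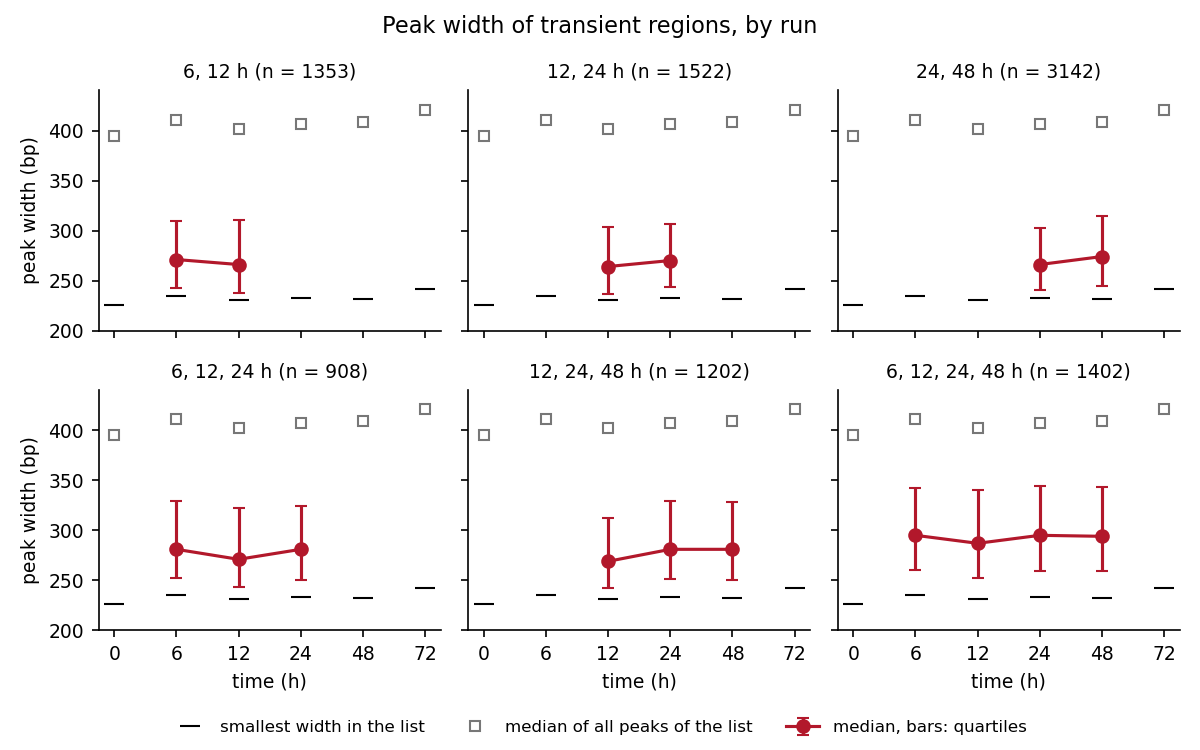
Peak width in bp (vertical axis) at each time in h (horizontal axis) for members with 1 peak per list, 1 panel per run, with points at the median and bars at the quartiles. Short black lines give the smallest width in each list and open squares the median of all its peaks, and in each run the members' medians (264 to 295 bp) lie nearer to the former.

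Peaks of a member overlap by the rule that merged them, which by itself holds their midpoints close together. The distance between the outermost peak midpoints had a median of 37 bp for the run at 6 and 12 h, 36 bp for 12 and 24 h and 31.5 bp for 24 and 48 h. For pairs with a gap in time it was 35.5 bp (6 and 24 h), 35 bp (6 and 48 h) and 36.5 bp (12 and 48 h). Neighbouring and separated times thus gave peaks that were about equally well aligned.

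Distance to the normoxia peaks differed between early and late members. Over all members the median gap to the nearest 0 h peak was 1659 bp, and 3582 of them (37.3%, 36.4 to 38.3%) lay within 1 kb of one, against 31.4% of all regions absent at 0 h. For the run at 6 and 12 h the median gap was 1152 bp and 45.3% lay within 1 kb (42.6 to 48.0%). For the run at 24 and 48 h it was 2370 bp and 30.7% (29.0 to 32.3%). The runs that began at 6 or 12 h and included 3 or 4 lists lay between, with medians of 1285 to 1922 bp. Broken patterns had a median of 1692 bp and regions gained and kept to 72 h one of 2496 bp. Among neighbouring pairs, the later the run, the farther its regions lay from normoxia peaks. The run at 24 and 48 h came near to the regions gained and kept, which pool gains at any time from 6 h on. Regions called at 48 and 72 h alone lay farther off, with a median of 3008 bp. A similar step with time was seen outside the members. Regions of 1 list alone had medians of 1466, 1483, 1819 and 2556 bp at 6, 12, 24 and 48 h. Pairs with a gap had 1438.5 bp (6 and 24 h), 1754 bp (6 and 48 h) and 1909.5 bp (12 and 48 h).

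**Figure D4:**
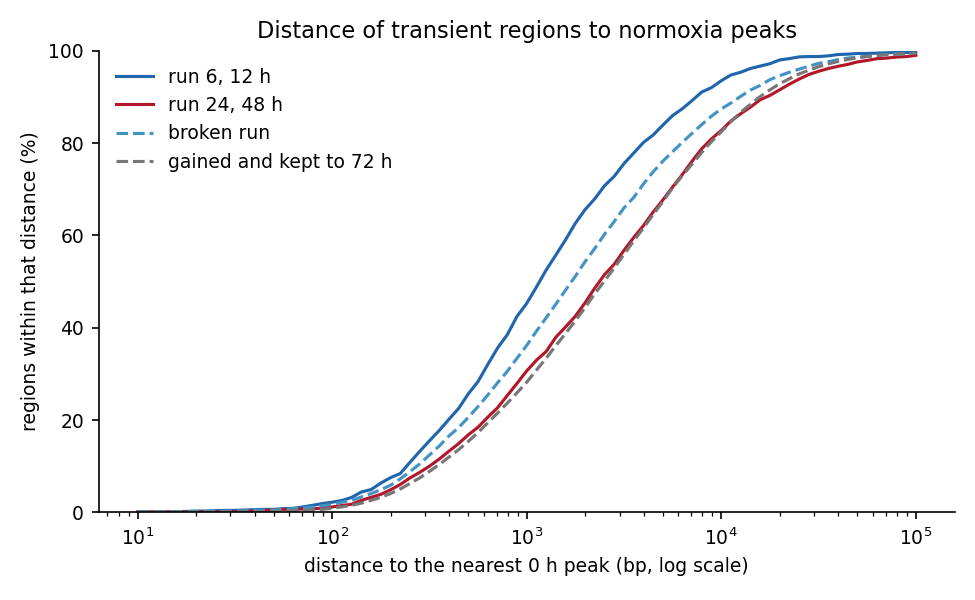
Share of regions (vertical axis, %) within a given distance of the nearest 0 h peak (horizontal axis, bp, log scale) for the runs at 6 and 12 h and at 24 and 48 h (solid lines) and for broken patterns and regions gained and kept (dashed lines). At 1 kb the run at 6 and 12 h stands at 45.3% and that at 24 and 48 h at 30.7%.

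At the edge of the rule, 102 members had a 0 or 72 h peak less than 50 bp away. In 1 of them, chr3:10188023-10188287 of the run at 24 and 48 h, such a peak adjoined the region with a gap of 0 bp. On the other side, 82 regions built from the 4 middle lists alone had an unbroken run but shared less than 50 bp with a 0 or 72 h peak. The smallest overlap was 1 bp, at chr2:188722998-188723300. At the other extreme, 636 members (6.63%) lay at least 10 kb from any 0 or 72 h peak, and 301 of these belonged to the run at 24 and 48 h. The share was 7.31% for broken patterns and 7.49% for regions of 1 middle list alone, so members were not more remote than these. Among them chr1:43123004-43123580 had the widest peaks, with 456, 524 and 530 bp from 12 to 48 h, at 27580 and 27504 bp from the end lists. It was followed by chr6:86974529-86974984, with 455 and 456 bp at 24 and 48 h and a gap of 17606 bp to both end lists. These regions were named after their values were seen.

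Early and late runs also lay at places of different peak density. Bins of 1 Mb were ranked by their mean number of peaks and split into deciles. All members together were spread much like all regions, with 26.9% in the 5 sparsest deciles (26.0 to 27.7%) against 26.3%. By run the share differed. It was 18.3% for 6 and 12 h (16.3 to 20.5%), 26.0% for 12 and 24 h (23.8 to 28.3%) and 33.1% for 24 and 48 h (31.5 to 34.8%). For 6, 12 and 24 h it was 21.0%, for 12, 24 and 48 h 27.4% and for the full run 25.3%. The pairs with a gap lay between the extremes, at 26.1% (6 and 24 h), 28.3% (6 and 48 h) and 28.6% (12 and 48 h).

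In the sparsest decile, 5 of 3311 regions were of the run at 6 and 12 h (1.51 per 1000, 0.491 to 3.52), and 67 were of the run at 24 and 48 h (20.2 per 1000, 15.7 to 25.6). In the densest decile the values were 4.03 per 1000 (3.62 to 4.48) and 5.86 per 1000 (5.37 to 6.40) of 86287 regions. The early run thus became more frequent with density and the late run less so. A similar step was seen in regions of 1 list alone, of which 23.6% at 6 h and 35.6% at 48 h lay in the 5 sparsest deciles. Regions gained at any time from 6 h on and kept to 72 h stood at 35.4%, those called at 48 and 72 h alone at 39.3% (38.5 to 40.1%), and those present in all 6 lists at 21.5%. The share of the late run lay below that of the regions called at 48 and 72 h alone.

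**Figure D5:**
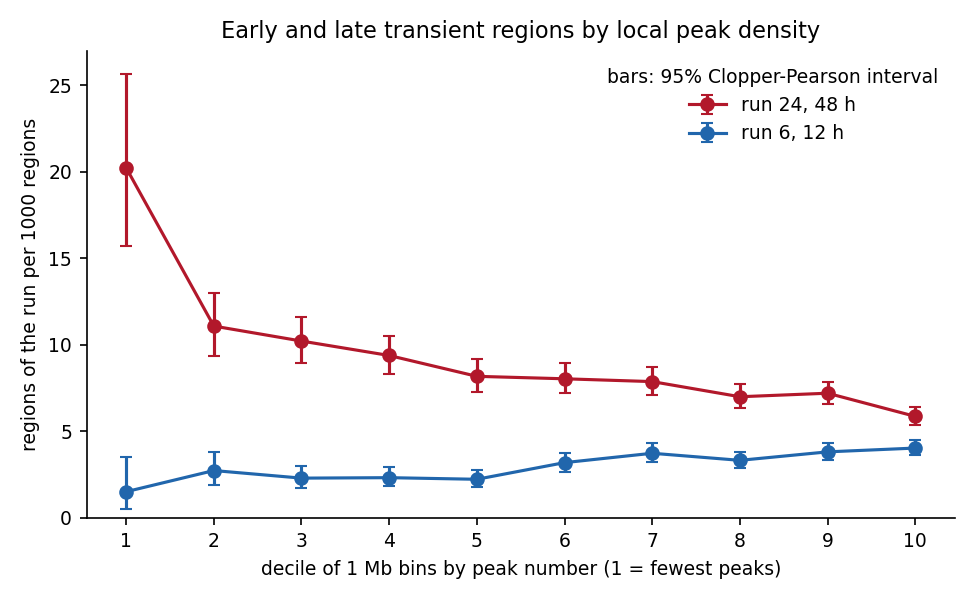
Regions of a run per 1000 regions (vertical axis) in deciles of 1 Mb bins ordered by peak number (horizontal axis), with bars for the 95% Clopper-Pearson interval. The run at 24 and 48 h goes from 20.2 in the sparsest to 5.86 in the densest decile, and that at 6 and 12 h from 1.51 to 4.03.

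By chromosome, members made up between 20.5 and 30.6 of 1000 regions. The highest share was on chromosome 18, with 193 of 6307 regions (30.6 per 1000, 26.5 to 35.2), followed by chromosome 20 (27.1) and chromosome 19 (26.3). The lowest shares were on chromosome 4 (20.5 per 1000, 18.8 to 22.4), chromosome 13 (20.9) and chromosome 22 (21.2). Chromosome 18 also had the fewest regions per Mb (80.9), the smallest share of regions present in all 6 lists (37.3%) and the most regions of 1 middle list alone (107 per 1000). Their part in its share of members was not tested. The ratio of members at 24 and 48 h to those at 6 and 12 h was 3.71 on chromosome 18, 3.37 on chromosome 6, 3.35 on chromosome 13 and 3.31 on chromosome 4, and it was 1.42 on chromosome 17 and 1.65 on chromosome 20. Within 5 Mb of the first or last region of a chromosome lay 11.2% of the members (10.6 to 11.8%) and 10.7% of all regions.

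Members were scattered along the chromosomes. Of 2700 bins of 1 Mb with regions, 352 held no member, the median was 3 and the most was 17. These 17 lay on chromosome 20 from 32 to 33 Mb, among 329 regions, and 5 of them were of the run at 6 and 12 h. Chromosome 16 from 88 to 89 Mb held 16 members of 364 regions, and chromosome 20 from 62 to 63 Mb held 16 of 351. Chromosome 1 held 14 from 31 to 32 Mb, among 344 regions, and 14 from 200 to 201 Mb, among 116 regions. In the last of these bins members were 121 per 1000 regions, where the median over 2290 bins with at least 50 regions was 21.7, and no region with a broken pattern lay in it.

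That bin had the highest share of members of the 2290. Its peak numbers from 0 to 72 h were 71, 80, 82, 92, 92 and 93. Of its members, 7 were of the run at 24 and 48 h, 3 of 6 and 12 h, 2 of 12 and 24 h and 2 of the full run. Chromosome 3 from 138 to 139 Mb came next with 9 members of 75 regions (120 per 1000), also without a broken pattern, and 5 of the 9 were of the run at 24 and 48 h. Both bins held their highest number of peaks at 72 h (93 and 54), where their members were missing. The bin on chromosome 3 was named after its value was seen.

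Members that lay close together shared a run about as often as neighbouring members did in general. Of 627 neighbouring members no more than 10 kb apart, 112 pairs were of the same run (17.9%, 14.9 to 21.1%), against 21.0% of all 9572 neighbouring pairs at any distance. Most members stood alone in this sense, with 9374 whose adjoining members within 10 kb were of another run or missing, besides 104 pairs and 4 groups of 3. A group of the full run lay at chr2:64823430-64828638, over 5.21 kb. Its first member had peaks of 254, 250, 335 and 358 bp in time order. The second had 244, 231, 365 and 279 bp, and the third 246, 231, 332 and 367 bp. All 3 were narrow in the first 2 lists and wider in the later ones before they were missing at 72 h. The other groups were chr16:70052742-70067303 of the full run, chr3:132788471-132796855 of 12 and 24 h and chr14:20785234-20792876 of 24 and 48 h.

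Lastly, the lasting peaks beside the members were compared, since the rule did not use them. For each member the nearest region within 5 kb that had exactly 1 peak in each of the 6 lists was taken, and its mean log2 width over the lists of the member's run was set against its mean at 0 and 72 h. Beside members of 6 and 12 h, 488 of 962 such neighbours (50.7%, 47.5 to 53.9%) were wider in the run than at its ends, against 43.8% of all 153622 such regions. Beside regions with the mirror pattern, missing at 6 and 12 h and present at all other times, the share was 39.7% (37.5 to 41.9%). The corresponding median log2 ratios were 0.0011, -0.028 and -0.039, so the differences in width were small.

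The neighbours of the other runs differed less from the background. For 24 and 48 h the share was 58.6% (56.2 to 60.9%) against 55.8%, and 50.5% (46.6 to 54.4%) beside the mirror pattern. For 12 and 24 h it was 49.1% (46.0 to 52.3%) against 46.0%, and for 6, 12 and 24 h 48.3% (44.3 to 52.2%) against 45.8%. For 12, 24 and 48 h it was 52.3% (48.6 to 56.0%) against 50.4%, and for the full run 52.0% (48.8 to 55.2%) against 49.2%. In these last 4 runs the interval included the background value. Beside broken patterns the shares were 49.9% against 49.0% for 6 and 24 h, 52.3% against 53.1% for 6 and 48 h, 55.6% against 49.97% for 12 and 48 h, 53.7% against 48.6% for 6, 12 and 48 h and 55.0% against 52.6% for 6, 24 and 48 h. The interval lay above the background for 12 and 48 h (52.6 to 58.7%) and for 6, 12 and 48 h (49.5 to 58.0%). It included the background for the other patterns. All these intervals cover counting error over neighbours and no error between libraries, which the neighbours share. Some neighbours were also counted more than once, as the 962 beside members of 6 and 12 h were 956 distinct regions. Whether an interval included the background therefore cannot decide if the times differed.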

How the data were processed

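The series has 7 samples of SK-N-BE(2) cells: an input, not analysed here, and 1 library per time point. The authors deposited 3 columns per list, a chromosome with the first and last position of a peak, and no height, score or read count. Per the submitters' processing notes, BWA 0.7.17, MACS2, HTSeq and hg19 were used, in roles that the notes leave out. For the calling threshold and the use of the input, nothing is given in the sources used here.

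Regions, runs and gaps (edge to edge) were computed with Python 3.11.15, NumPy 2.4.6, pandas 2.3.3, SciPy 1.17.1 and Matplotlib 3.10.9. On 20000 simulated sites, 100% of presence patterns came back. With 1 library per time no test between times was possible.

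Named regions were the 3 of each run with the largest narrowest peak, the 5 bins with most members and 1 region at each edge of the rule. The members and lists were chosen with earlier results of these data known. Gene lists set out for an hg19 annotation were not run, since the gene table at hand is of another build. Alternatives concerned chromosome X, merging, smallest width, list length, distance and coverage.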

Additional observations from a re-analysis of the deposited data

Results flagged for a closer look

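Chromosome X lies outside the rule, which covers the autosomes, and it held regions of the same pattern. There, 201 of 6715 regions were absent at 0 and 72 h and present in an unbroken run (29.9 per 1000, exact 95% Clopper-Pearson interval 26.0 to 34.3), and 158 had a broken pattern. Their median width was 324 bp.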

How the results depend on the processing

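Of 98 alternative values, 70 stayed within the limits set for a change, and 28 moved. All 7 alternatives kept more neighbouring than separated pairs (ratio 1.15 to 1.24, 1.19 in the report) and more unbroken than broken triples (1.02 to 1.29, 1.03 in the report). The ratio of pairs rests on the pair of 24 and 48 h. Without it, neighbouring pairs averaged fewer regions per pattern than separated ones in every alternative but the same number of peaks per list (2254 against 1820). With no 0 or 72 h peak allowed within 1 kb, 5186 transient regions were left, with 3831 broken and 7061 mirror patterns. The runs then held 622 (6 and 12 h), 760 (12 and 24 h), 1898 (24 and 48 h), 450 (6, 12 and 24 h), 701 (12, 24 and 48 h) and 755 (all 4), the median width was 334 bp, 53.1% were wider at the end of the run, and 21.4% of the early and 40.5% of the late pair lay in sparse bins. The share near normoxia peaks has no value there, since the choice removes it. Regions of the mirror pattern are present at 0 and 72 h, so this rule could not be used for them. For these, peaks within 1 kb were barred in the lists that lacked the region, which left 7061. Taking 285292 peaks per list, widest first, the run at 6 and 12 h held 2487 regions and that at 6, 12 and 24 h 1654, and the run at 24 and 48 h, with 2237, was no longer the largest. The median width was then 358 bp, 62.4% were wider at the end, and 21.6% and 35.1% lay in sparse bins. This choice removes narrow peaks from later lists more than from earlier ones (to 298 bp at 72 h, 226 bp at 0 h). The median width was 357 bp with a common smallest width of 242 bp, 410 bp with peaks of at least 300 bp and 351 bp where a list had to cover a set share of the region. In that order, 36.0%, 32.5% and 44.6% lay within 1 kb of a normoxia peak, and 25.6% did with merging across 300 bp. The late pair's share in sparse bins was 35.8% with merging and 31.4% with peaks of at least 300 bp. Shares in sparse bins, and widths with each list's smallest width subtracted (51.9% wider at the end), were added after the data were seen. For these changes the cause was not tested. No paired analysis was possible because each time point has 1 library, and for the same reason no replicate could be left out. Depth is unknown, so its effect on presence has no value here.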
